A study of Bombyx mori with 8 samples.

Results

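The regions described here are the stretches of the silkworm (*Bombyx mori*) genome where a G-quadruplex (G4) CUT&Tag peak was called in every one of 4 libraries, 2 from brain and 2 from fat body. Peaks of the 4 deposited lists were merged wherever they overlapped by at least 1 bp, and a merged region was kept when it held a peak of all 4 lists. This rule kept 1541 of 41892 merged regions (3.68%). Positions are those of the lists' own assembly, whose sequences are called here by number. Members were thus chosen by the peak calls themselves, and the strength, width and overlap of their peaks are given as descriptions of what the rule selects, with no test. All 4 libraries were labelled wild type, strain P50, stage code L5D3 and antibody BG4, and differed in the labels only in tissue and replicate number. Nuclei were isolated from homogenised tissue, and the labels name neither the number of animals in a library nor whether replicates are different animals, so differences between replicates may be technical. Of the 8 samples described, 4 were not analysed here, namely an IgG library, a brain library with stage code P0 and BmN cells, an ovarian line of the same species.

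A G-quadruplex is a four-stranded DNA fold in which guanines from neighbouring G-rich runs pair in flat layers that stack on each other around monovalent cations. In vertebrate cells such folds have been mapped mainly to open chromatin at promoters. In CUT&Tag an antibody bound to its target tethers the transposase Tn5, which cuts nearby accessible DNA and inserts sequencing adaptors, so a peak marks cutting near the antibody and open DNA is cut more readily. The brain is the neural and neuroendocrine centre of the larva, and the fat body stores fat and glycogen and carries out much of the insect's metabolism, much as liver and adipose tissue do in vertebrates. No IgG peak list was used, so a call in all 4 libraries does not by itself show that a region holds a G4.

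One library stood apart. Brain replicate 2 had 33925 peaks, against 6759 in brain replicate 1 and 8556 and 5894 in fat body replicates 1 and 2. The main measures of width, summits, rank, spacing and placement are therefore also given without it, while the regions named below and their order rest on all 4 lists. The text of the peak names also goes against the labels. Fat body peaks are all named with 1H6, another G4 antibody, brain replicate 1 peaks with BG4 and brain replicate 2 peaks with no antibody, and the stage text in the names differs from the labelled stage. If those names are right, tissue and antibody cannot be told apart in the comparisons below. An exact permutation test of 2 libraries against 2 cannot go below p = 0.333, and none was run.

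The shared regions took a larger part of the shorter lists. They held 1543 peaks of brain replicate 1 (22.8% of the list) and 1638 of brain replicate 2 (4.83%), with 1561 of fat body replicate 1 (18.2%) and 1558 of fat body replicate 2 (26.4%). Without brain replicate 2, 2365 regions were called in all of the 3 remaining lists. Among the regions called in exactly 3 lists, 824 of 1874 lacked a peak of brain replicate 2 and 511 lacked brain replicate 1, while 311 lacked fat body replicate 1 and 228 lacked fat body replicate 2. The longest list was thus the one most often missing.

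Each list was divided into 10 bins of equal size by fold, the height of the summit over the local background, which is the authors' own value and is used to rank peaks within a list. In brain replicate 1, 8.73% of the peaks in the lowest bin lay in shared regions and 46.4% in the highest bin. In fat body replicate 1 the lowest bin gave 2.57% and the highest 55.9%, and in fat body replicate 2 the lowest gave 5.76% and the highest 64.7%. The share was thus far higher among strong than among weak peaks in these 3 lists. Brain replicate 2 followed another course, with 1.36% in the lowest bin, 8.69% in bin 7 and 1.15% in the highest bin, whose 3392 peaks had a median fold of 15.6. The shared regions therefore held the strongest peaks of that library by fold about as rarely as its weakest, with 39 and 46 peaks of these bins. With bins of summit depth in place of fold, its lowest bin gave 2.53%, bin 8 gave 6.31% and the highest 5.84%, so that the steep fall at the strong end was seen with fold and not with depth.

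**Figure D1:**
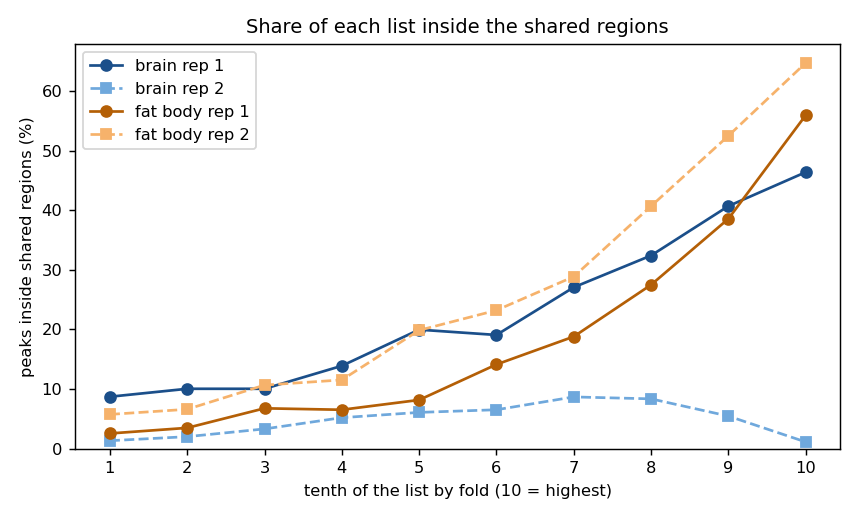
Share of peaks inside the shared regions (vertical axis, %) by bin of fold within each list (horizontal axis, 1 lowest and 10 highest), 1 line per library. Brain replicate 1 and both fat body lists climb to between 46.4% and 64.7% in the highest bin, and brain replicate 2 stays below 9% in every bin.

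The authors' −log10 p and fold together fix the number of fragments stacked at a summit (pileup) and the local background expected there, and both were solved for each peak. Peaks in shared regions had median summit pileups of 73 and 78 fragments in brain replicates 1 and 2, and of 84 and 69 in fat body replicates 1 and 2. Peaks outside them had 44 and 65 in the brain lists, against 53 and 38 in the fat body lists. The lowest pileup of a shared peak was between 18 and 24 fragments in each list. The median local background of shared peaks was 10.9 and 12.5 fragments in the brain lists, against 10.9 and 6.75 in the fat body lists, and that of other peaks was 8.56 and 12.1 in the brain lists, against 9.76 and 5.10 in the fat body lists. Shared peaks thus stood on a higher median background than the other peaks of their own list in all 4 libraries, though only slightly in brain replicate 2. Their higher folds did not come with a lower background. The lowest background in a list was 1.04 and 1.76 fragments for the brain libraries, against 5.81 and 3.32 for the fat body libraries. In the fat body lists 13.4% and 10.1% of shared peaks sat at that lowest value, where fold follows the pileup alone, beside 15.1% and 15.4% of other peaks. In the brain lists 0% and 0.183% of shared peaks did. The median background of shared peaks was 10.4 and 7.09 times the lowest value in the brain lists, against 1.88 and 2.03 times in the fat body lists. Background thus enters fold differently in the lists of the 2 tissues.

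The typical shared region was under 1 kb wide. The merged width had a median of 862 bp, with quartiles of 681 and 1128 bp and a range of 317 to 3465 bp. By comparison, regions called in both brain lists only had a median of 550 bp, regions in both fat body lists only 664 bp, and all merged regions 486 bp. A region merged from more lists can only be wider, so these differences follow in part from the rule. Only 84 shared regions (5.45%) were under 500 bp wide, and 25 were over 2 kb.

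Single peaks, with no merging, showed the same contrast in 3 of the 4 lists. Peaks inside shared regions had median widths of 641 bp in brain replicate 1, 656 bp in fat body replicate 1 and 647.5 bp in fat body replicate 2, against 463, 496 and 474 bp for the other peaks of those lists. In brain replicate 2 the order was the other way round, with 387.5 bp inside shared regions and 407 bp outside. A brain replicate 2 peak set covered a median of 50.2% of its shared region, while the other lists covered between 79.2% and 83.8%. Without the peaks of brain replicate 2 the same 1541 regions had a median width of 828 bp. The 2365 regions called in the 3 remaining lists had a median of 796 bp.

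**Figure D2:**
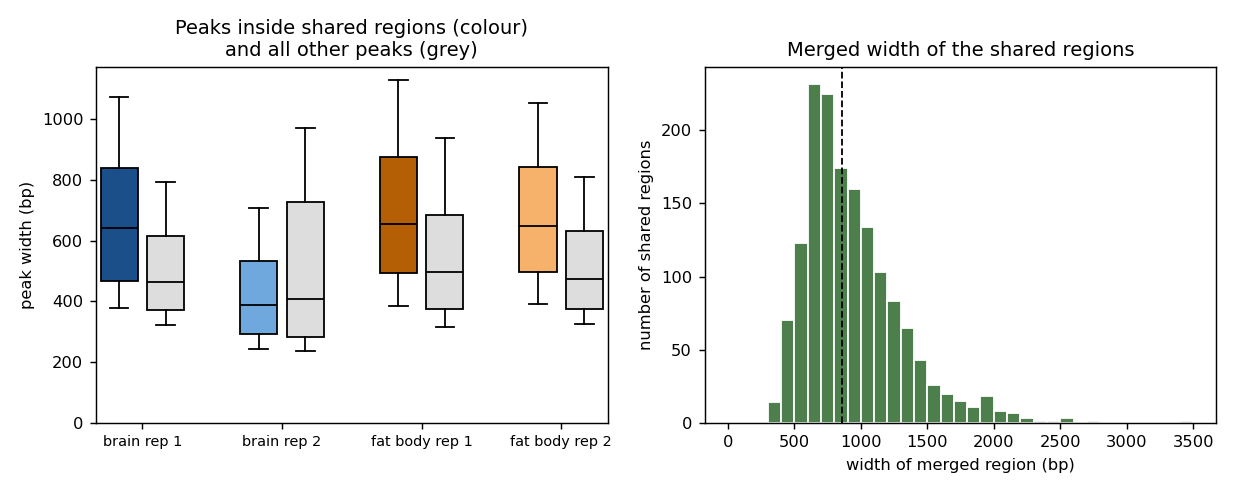
Left, width in bp of peaks inside the shared regions (colour) and of all other peaks (grey) in each list, as median line, quartile box and whiskers at the 10th and 90th percentiles. Right, number of shared regions by merged width in bins of 100 bp, with the median of 862 bp dashed; peaks in shared regions are the wider set in every list but brain replicate 2.

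Nearly all shared regions were simple overlaps rather than chains of peaks. In 1428 of them (92.7%) every list had exactly 1 peak. More than 1 peak of a list occurred in 2 and 94 regions for brain replicates 1 and 2, and in 20 and 17 for fat body replicates 1 and 2. In 1476 regions the strongest peaks of the 4 lists had a stretch in common, with a median length of 320 bp. In the other 65 (4.22%) the 4 strongest peaks shared no base and were joined through neighbours. In 1039 regions (67.4%) the summit of each list lay inside the peaks of all other lists. When only the 3 other lists were used, 2320 of the 2365 regions (98.1%) had exactly 1 peak of each list. The common stretch then had a median of 440.5 bp, and 2031 (85.9%) had all summits inside all peaks. With fewer lists, fewer peaks and summits have to fit, so these higher values follow in part from the rule.

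The summits, where the most fragments pile up, gave a finer measure of whether the libraries point to the same place. The largest distance between any 2 of the 4 summits of a region had a median of 172 bp, with quartiles of 96 and 301 bp. All 4 summits fell within 100 bp in 408 regions (26.5%) and within 250 bp in 1046 (67.9%). Without brain replicate 2 the median over the same regions was 119 bp, but a largest distance over fewer summits can only be equal or smaller. In 9 regions all 4 summits fell on the same base, and in 61 regions at least 3 did.

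Between pairs of libraries the fat body replicates lay closest, with a median summit distance of 48 bp. The brain replicates had 78 bp. Pairs of different tissues had 77 and 75 bp for brain replicate 1 with fat body replicates 1 and 2, and 99 and 108 bp for brain replicate 2 with the same lists. The distance between the brain replicates therefore lay within the range of the between-tissue pairs, while that of the fat body replicates lay below all of them. The signed distance had a median of 0 bp in each of the 6 pairs, so no library was displaced to one side.

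The distances were concentrated near 0. In 30.3% of shared regions the fat body summits were no more than 10 bp apart, and 20.7% lay between 11 and 50 bp. Summits within 10 bp made up 23.1% for the brain replicates, 23.9% and 21.3% for brain replicate 1 with fat body replicates 1 and 2, and 15.4% and 13.4% for brain replicate 2 with them. In every pair the interval up to 10 bp held more regions than the interval from 11 to 50 bp. The same exact base was the summit in 143 regions (9.28%) for the brain replicates, in 122 (7.92%) for the fat body replicates and in 60 to 110 regions for pairs of different tissues.

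**Figure D3:**
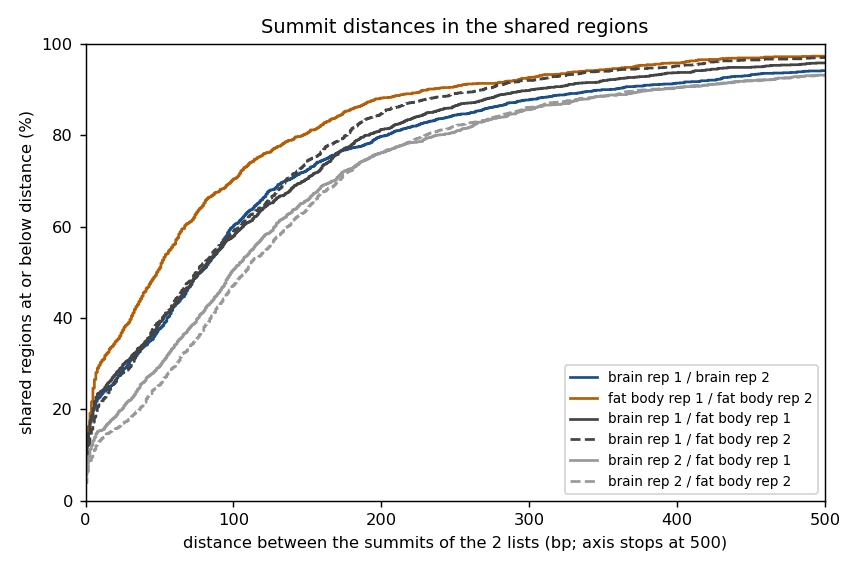
Cumulative share of the 1541 shared regions (vertical axis, %) by distance between the summits of 2 lists (horizontal axis, bp, cut at 500), 1 line for each of the 6 pairs. All lines rise steeply in the first 10 bp; the fat body pair is highest, at 70.5% within 100 bp, and the pairs of brain replicate 2 with fat body lowest, at 50.7% and 47.2%.

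Peak edges also coincided between separate libraries. The fat body replicates had the same start base in 142 shared regions (9.21%) and the same end base in 112 (7.27%). The brain replicates had the same start in 86 (5.58%) and the same end in 76 (4.93%). For pairs of different tissues the start was the same in 54 to 108 regions and the end in 53 to 103. At least 3 lists had the same start in 51 regions and the same end in 48, and in 4 regions at least 3 lists had both edges in common. Coinciding edges were not limited to the shared set. In the regions of both brain lists only, the brain replicates had the same start in 5.58% and the same end in 6.08%. In those of both fat body lists only, the fat body replicates had 5.61% and 4.98%.

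Summit agreement was next set against the same replicate pair in regions called in 1 tissue only. The fat body replicates had a median distance of 48 bp in shared regions and 67 bp in the 1266 regions of both fat body lists only. For the brain replicates the order was reversed, with 78 bp in shared regions and 69 bp in the 2008 regions of both brain lists only. Within 10 bp lay 23.1% of shared and 24.1% of brain-only regions, and 30.3% of shared and 22.3% of fat-body-only regions. By these measures the shared set had the closer summits for the fat body pair and the less close ones for the brain pair. The same base was the summit in 8.12% of brain-only and 5.37% of fat-body-only regions, beside 9.28% and 7.92% of shared regions for the same pairs. The differences were not tested.

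Summit distances varied with strength and width inside the set. Regions were ordered by their lowest percentile rank by fold over the 4 lists and divided into 4 parts of 386 or 385 regions. The median of the largest summit distance was 223.5, 198, 160 and 117 bp from the weakest to the strongest part, while the median width stayed between 847 and 879 bp. With brain replicate 2 left out, the corresponding medians over the 2365 regions were 182, 150, 117 and 85 bp. All 4 summits fell within 100 bp in 16.3% of the weakest part and 41.3% of the strongest. By width, the median largest distance was 84 bp in regions under 500 bp and 466 bp in the 115 regions of 1500 bp or more. A summit distance cannot exceed the width of its region, so a rise with width follows in part from that bound. As a share of width, the median was 18.4% to 22.1% in the width bins under 1500 bp and 28.0% above them.

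The widest and the narrowest regions show both ends of this range. The widest, on sequence 6 at 3771008 to 3774472, had summits at 3771870 in brain replicate 1 and 3774162 in brain replicate 2, with 3774162 in fat body replicate 1 and 3771741 in fat body replicate 2. The strongest summits thus lay at a pair of places, at most 2421 bp apart, each taken by 1 brain and 1 fat body library. Brain replicate 2 and fat body replicate 2 had 2 peaks each in the region, and only their peak of highest fold was used. The single peak of fat body replicate 1 covered both places. Pileups in this region were 511 and 152 fragments in brain, against 943 and 274 in fat body. They stood over backgrounds of 79.6 and 35.2 in brain, against 162 and 65.7 in fat body. Brain replicate 1 and fat body replicate 1 had no deeper summit in any shared region. The next widest, on sequence 5 at 8980980 to 8983768, had 1 strongest summit apart from the others, that of brain replicate 1. The largest distance there was 2024 bp, and both fat body lists had 2 peaks there, with only that of highest fold used. Not all wide regions were split in this way. That on sequence 24 at 17202735 to 17205250 was 2516 bp wide, with the strongest summits of all lists within 80 bp.

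The narrowest region, on sequence 19 at 3149267 to 3149583, had its summit at 3149432 in all 4 lists. Brain replicate 1 and both fat body lists called it with the same start and the same end, and brain replicate 2 called it from 3149325 to 3149537. Its folds were low, at 4.75 and 3.00 in brain, against 4.17 and 5.51 in fat body. The next narrowest, on sequence 23 at 5441411 to 5441754, had its summits within 4 bp, and 3 lists began it at the same base. On sequence 24 at 9490758 to 9491103, a region of 346 bp, brain replicate 1 and fat body replicate 1 gave the same start, end and summit, and folds were 10.9 and 7.74 in brain, against 11.8 and 18.8 in fat body.

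Strength was compared by the percentile rank of a region's strongest peak within its own list, since folds of different lists are not on a common scale. Shared regions had median ranks of 71.8 and 60.9 in brain replicates 1 and 2, and of 81.2 and 77.0 in fat body replicates 1 and 2. They reached into the weak end as well. Ranks of 50 or below were held by 27.3% and 34.4% of them in the brain lists and by 14.2% and 19.7% in the fat body lists. A rank above 50 in all 4 lists was held by 689 regions (44.7%), and 56 were at or below 50 in all 4.

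The top 10% of a list by fold held 313 shared regions in brain replicate 1 and 39 in brain replicate 2, with 478 in fat body replicate 1 and 382 in fat body replicate 2. This is 20.3%, 2.53%, 31.0% and 24.8% of the shared regions, beside 10%, 10.1%, 10% and 10.1% of all merged regions with a peak of those lists. Since the calls chose the members, nothing further is read from these shares. Both brain lists ranked 24 shared regions (1.56%) in their top 10%, beside 1.13% of all regions called in both brain lists. Both fat body lists did so for 280 (18.2%), beside 9.46% of all regions called in both fat body lists. Only 13 shared regions were in the top 10% of all 4 lists, 134 in that of 3 lists, and 857 in that of none.

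Shared regions were ordered by the lowest of their 4 percentile ranks, and the first 10 are named. The region at the head of this order lies on the short sequence 216 at 15442 to 16152. Its folds were 30.8 and 29.7 in brain replicates 1 and 2 and 31.3 and 26.4 in fat body replicates 1 and 2, and its summits lay within 4 bp. The pileups were 377 and 82 fragments in brain, against 258 and 113 in fat body, over backgrounds of 11.3 and 1.80 in brain, against 7.28 and 3.32 in fat body. This was 1 of only 2 shared regions outside the 28 long sequences.

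The other 9 were on long sequences. On sequence 25 at 5612121 to 5612511, the folds were 14.0 and 16.7 in brain, against 12.0 and 15.1 in fat body. On sequence 6 at 4855192 to 4856123, they were 9.15 and 15.8 in brain, against 13.4 and 16.7 in fat body. The region on sequence 20 at 7393961 to 7394988 had folds of 10.7 and 16.5 in brain, against 14.6 and 12.9 in fat body, and its summits lay within 3 bp although it was 1028 bp wide.

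A further region of sequence 25, at 6625101 to 6625791, had folds of 19.4 and 14.6 in brain, against 23.2 and 25.7 in fat body. On sequence 19 at 9943204 to 9944009, folds of 8.39 and 13.8 in brain stood beside 15.6 and 16.6 in fat body. Sequence 11 had 2 of the 10, at 15504722 to 15506033 and at 11412290 to 11413521. The region at 11412290 had the deepest summit of the 10 in every library but brain replicate 1, with pileups of 201 and 353 fragments in brain, against 262 and 335 in fat body. The remaining 2 lie on sequence 3 at 8357773 to 8358585 and on sequence 1 at 10136620 to 10137611, with lowest ranks of 92.2 and 91.7.

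How far the libraries ordered the shared regions alike was described by Spearman correlations of fold over the 1541 regions, which are not independent replicates. The fat body replicates gave 0.702 and the brain replicates 0.470. Brain replicate 1 gave 0.425 and 0.532 with fat body replicates 1 and 2, and brain replicate 2 gave 0.235 and 0.264. The mean of the 4 between-tissue pairs was 0.364 ± 0.140 (SD, 4 pairs that share libraries). The value of the brain replicates thus lay within the range of the between-tissue pairs, and that of the fat body replicates above it. Without brain replicate 2, the between-tissue mean over the 2365 regions of the remaining lists was 0.498.

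Local background was ordered more alike than fold in most pairs. Its Spearman correlation was 0.640 for the brain replicates, 0.692 for the fat body replicates and 0.469 to 0.729 for pairs of different tissues. Peak width was ordered alike in the fat body replicates (0.629) and hardly at all in the brain replicates (0.152). Widths in brain replicate 1 went with those in fat body replicates 1 and 2 at 0.391 and 0.513. In the regions of 1 tissue only, the fold correlation was 0.547 for the brain replicates and 0.575 for the fat body replicates, so for fat body it was higher in shared regions and for brain lower.

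Some shared regions ranked differently between the tissues in both replicates. The percentile ranks of both brain lists were above those of both fat body lists in 159 regions (10.3%), the reverse held in 622 (40.4%), and ranks overlapped in 760. Only shared regions have a rank in all 4 lists, so no outside background exists for these counts. Both ranks of 1 tissue can also lie above both of the other without a difference between the tissues, and the counts were not tested. The mean rank of shared regions was 11.1 points lower in the brain lists than in the fat body lists. With ranks taken among the shared regions only, which gives every list the same mean rank by construction, the counts were 369 with brain above and 368 with fat body above. Without brain replicate 2, and so with 1 brain list, brain was above in 610 and fat body in 1178 of the 2365 regions. The gap between the tissues was taken from the lower rank of the tissue above to the higher rank of the other. Over the shared regions called in all 4 lists, it was more than 25 points in 15 with brain above and 121 with fat body above.

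Pileups moved with these ranks. The sets were chosen by fold, which is itself made of pileup and background, so this follows in part from the choice and was not tested. Regions with brain above had median pileups of 82 and 103 fragments in brain replicates 1 and 2, and of 53 and 44 in fat body replicates 1 and 2. Regions with fat body above had 63 and 68 in the brain lists, against 101 and 83 in the fat body lists. Local backgrounds differed less, at 11.2 and 13.3 fragments in brain, against 9.49 and 6.20 in fat body for the first set, while the second set had 10.3 and 11.6 in brain, against 11.2 and 7.0 in fat body. Median widths were 843 and 829 bp and median largest summit distances 174 and 173 bp in the sets with brain above and with fat body above, so the sets were alike in shape.

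The regions named next had the largest differences between the mean rank in brain and the mean rank in fat body, 5 in each direction. The largest shift towards brain, on sequence 4 at 3489483 to 3490432, came with folds of 7.18 and 7.12 in brain, against 3.59 and 4.23 in fat body. Its percentile ranks were 84.3 and 70.9 in the brain lists, against 14.6 and 5.89 in the fat body lists. The next, on sequence 12 at 13801572 to 13802533, had folds of 8.09 and 37.1 in brain, against 3.88 and 6.20 in fat body. The 37.1 is the highest fold of any shared peak and came from 927 fragments over a background of 24.0 in brain replicate 2. The strongest peaks of the other 3 libraries in this region had 90, 27 and 27 fragments, at summits elsewhere in it. The 4 summits spread over 492 bp, and the brain replicate 2 peak shared no base with that of fat body replicate 1. The folds here thus do not compare a single place.

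Further regions with brain above lie on sequence 8 at 15516923 to 15517663, on sequence 3 at 534819 to 535868 and on sequence 9 at 14745520 to 14746518. Their folds were 7.06 and 9.42, 11.1 and 7.79, and 10.3 and 9.49 in brain, against 3.26 and 5.99, 4.13 and 6.16, and 3.67 and 7.41 in fat body. The fat body pileups of these 3 regions were between 24 and 32 fragments, close to the lowest of any shared peak.

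Towards fat body, the largest shift was on sequence 8 at 9919722 to 9920548, where the folds were 3.46 and 3.14 in brain, against 8.93 and 10.7 in fat body. Ranks there were 5.30 and 7.43 in the brain lists, against 92.9 and 87.6 in the fat body lists, and the pileups 30 and 41 fragments in brain, against 107 and 92 in fat body. On sequence 27 at 590403 to 591064, the folds were 4.02 and 3.08 in brain, against 9.27 and 10.4 in fat body. A further region of sequence 27, at 8771741 to 8773186, had 3.86 and 3.73 in brain, against 8.20 and 11.9 in fat body. There the pileups overlapped, at 95 and 175 fragments in brain, against 113 and 153 in fat body, and the backgrounds were 23.9 and 46.2 in brain, against 12.9 and 12.0 in fat body.

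The last of the 5 regions in this direction lie on sequence 4 at 11022074 to 11023637 and on sequence 13 at 13294092 to 13295191. On sequence 4 the folds were 3.58 and 3.49 in brain, against 6.96 and 11.3 in fat body, and on sequence 13 they were 3.31 and 4.20 in brain, against 10.3 and 9.79 in fat body. All 5 regions had percentile ranks between 3.21 and 31.9 in the brain lists, against 79.3 to 96.5 in the fat body lists. They were called in both tissues but ranked far lower in the brain lists, and were chosen for the size of that difference. In the region on sequence 13 and in that at 8771741 on sequence 27, brain replicate 2 had 2 peaks. The strongest summits there spread over 617 and 531 bp.

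**Figure D4:**
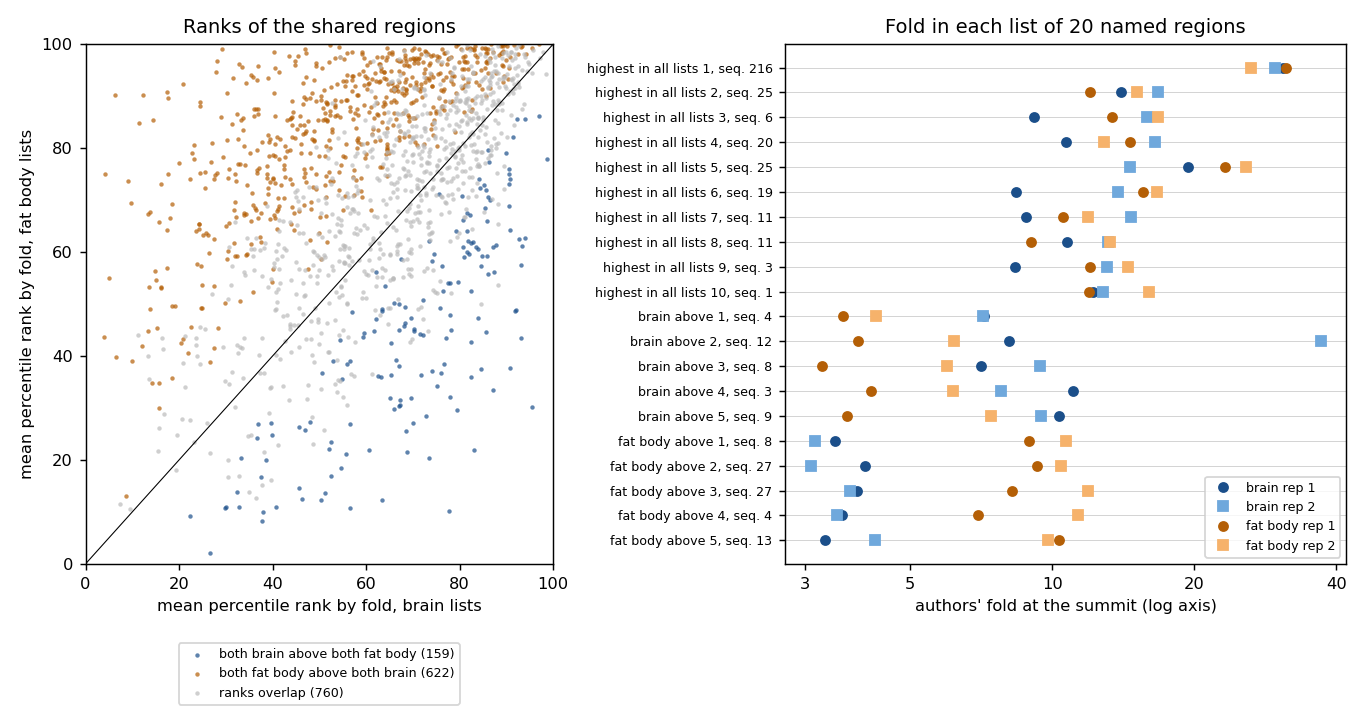
Left, mean percentile rank by fold of each shared region in the brain lists (horizontal axis) and fat body lists (vertical axis), coloured by whether the ranks of both lists of 1 tissue lie above those of the other; 622 regions are coloured for fat body above and 159 for brain above. Right, the authors' fold in each library (log axis) for the 10 regions with the highest lowest rank and the 5 with the largest shift in each direction. The brain and fat body points separate in the latter, which were chosen by rank for such a separation.

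The nearest other shared region lay at a median distance of 64.7 kb, with quartiles of 23.9 and 156 kb, and 185 regions (12.0%) had one within 10 kb. The regions of both brain lists only, 2008 in number, had a median of 63.8 kb and 11.8% within 10 kb, and the 1266 regions of both fat body lists only had 70.3 kb and 10.0%. Spacing was thus close to that of the tissue-restricted sets, which differ in number. The 2365 regions found without brain replicate 2 had a median of 37.3 kb, with 19.7% within 10 kb. Most shared regions had a peak region of a single list nearby, within 10 kb for 73.2% of them, as regions of 1 list make up most of the merged set.

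The 185 close regions formed 88 runs, of which 80 were pairs, 7 had 3 regions and 1 had 4. The run of 4 spans 15.7 kb on sequence 8 from 6678428 to 6694110. Its folds ran from 4.84 to 8.38 in brain replicate 1 and from 4.64 to 7.22 in brain replicate 2, with 5.91 to 8.22 in fat body replicate 1 and 8.02 to 11.4 in fat body replicate 2. Its last 2 regions had summits within 8 and 2 bp. The span held 1 further merged region of any class, so 4 of its 5 regions were common to the 4 libraries. Runs of 3 lie on sequence 7 from 9242837 to 9261180 and on sequence 9 from 5056654 to 5073713. The closest neighbours of all, on sequence 4 beginning at 13951424, were 524 bp apart. The most isolated region, on sequence 1 at 18476408 to 18476820, had its nearest shared neighbour 1787300 bp away, and folds of 10.7 and 4.69 in brain, against 12.3 and 18.1 in fat body.

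The longest stretch of a long sequence between shared regions was 3741 kb, on sequence 6 from 9381160 to 13121956. Peaks were not missing from it. It held 30 and 300 peaks of brain replicates 1 and 2, and 32 and 28 of fat body replicates 1 and 2. There were 20 regions of both brain lists only and 11 of both fat body lists only. Over all of sequence 6 the lists had 12.5 and 67.6 peaks per Mb in brain, against 16.6 and 11.7 in fat body. Peak density in the stretch was thus below that of the sequence in every list but brain replicate 2. The next longest, on sequence 26, was 2444 kb and held 11 brain-only and 3 fat-body-only regions. In windows of 1 Mb the median was 3 shared regions, 47 of 430 windows (10.9%) had none, and the variance over the mean was 1.76. In the 3 other lists the median was 5, 25 windows (5.81%) had none, and the variance over the mean was 2.17. The fullest windows, on sequence 9 from 9000001 and on sequence 13 from 13000001, held 12 each.

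Along the genome, 1539 of the 1541 regions lay on the 28 long sequences, at 3.47 per Mb. Density ranged from 5.18 per Mb on sequence 10 to 2.13 per Mb on sequence 1, with a median of 3.52. When brain replicate 2 was left out, the same sequences were the densest, at 7.91 per Mb, and the sparsest, at 2.86. Sequence 1 held 1280 merged regions, of which 44 were shared, 111 were of both brain lists only and 28 of both fat body lists only. Shared regions there made up 25.1% of the regions called in both brain lists, the lowest value of the 28 sequences, and 43.6% of those called in both fat body lists. On sequence 10 they made up 42.3% and 38.9% of the brain and fat body regions. Density had little relation to sequence length over the 28 sequences (Spearman 0.0307, Pearson 0.0766), whereas the peak density of brain replicate 2 fell with length (Spearman -0.666) and those of the other lists gave 0.216 to 0.324. Those values are descriptions over 28 sequences, and a sequence's length was taken as the last peak end of any list.

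The outer 10% at either end, together 20% of the length, held 253 of them, or 16.4% (95% exact binomial interval 14.6% to 18.4%). The share in each further step of 10% towards the middle was 17.6%, 18.6%, 22.9% and 24.4%. In the outer zone lay 19.4% of the regions of both brain lists only (17.7% to 21.2%) and 22.1% of those of both fat body lists only (19.8% to 24.4%). Regions of exactly 3 lists were placed much like the shared ones, with 18.4% in the outer zone and 23.6% in the middle one. All peaks of brain replicate 1 had 18.0% and 22.9% in these zones and those of brain replicate 2 had 20.1% and 18.1%, against 18.0% and 23.5% in fat body replicate 1 and 19.7% and 22.7% in fat body replicate 2. A larger share in the middle than at the ends was thus seen in the lists as a whole, other than that of brain replicate 2, and not in the shared regions alone. The intervals cover counting error only and take regions as independent, and no test of the difference was run. Without brain replicate 2 the outer share was 17.4%. The sequences differed among themselves, from 3.85% on sequence 2 to 37.5% on sequence 24, and the first and last 10% of the sequences held 135 and 118 shared regions.

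**Figure D5:**
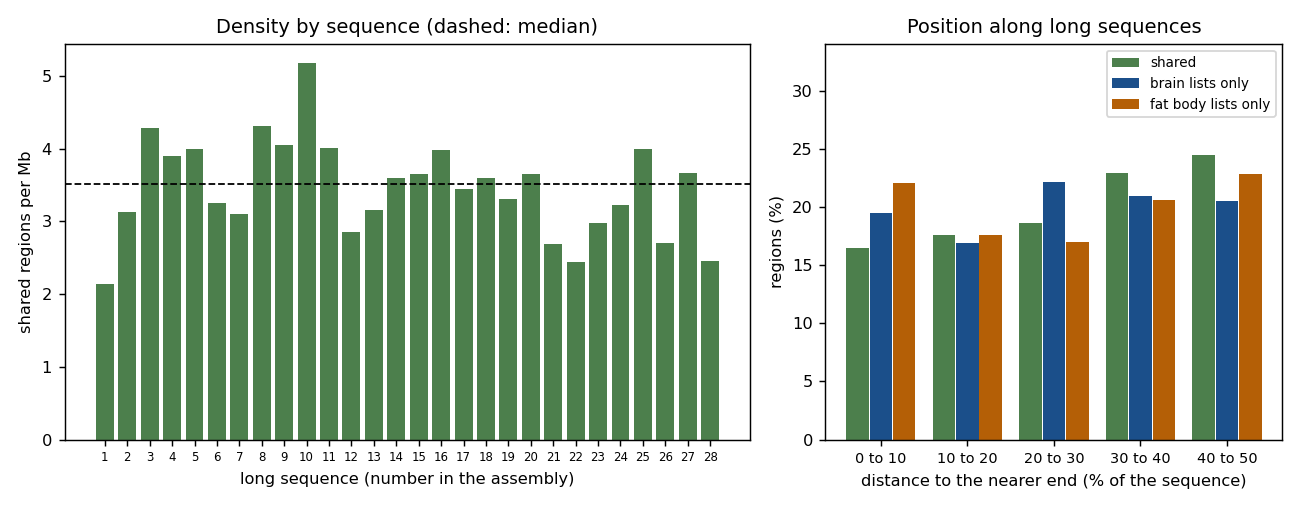
Left, shared regions per Mb (vertical axis) on each of the 28 long sequences (horizontal axis), with the median of 3.52 dashed; sequence 10 is highest at 5.18 and sequence 1 lowest at 2.13. Right, share of regions (vertical axis, %) by distance to the nearer end of the sequence, for shared regions, regions of both brain lists only and regions of both fat body lists only; the shared regions climb from 16.4% at the ends to 24.4% in the middle.

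The rule has a sharp edge, and regions on either side of it are given for scale. The shared region with the lowest rank in any list, on sequence 18 at 12863902 to 12865510, had folds of 2.54 and 3.39 in brain, against 4.35 and 6.52 in fat body. The region missed with the highest ranks, on sequence 9 at 761933 to 762484, had a fold of 14.8 in brain replicate 1 and 13.5 and 15.8 in fat body replicates 1 and 2. It had no peak in brain replicate 2, whose nearest peak lay 1166 bp away. The next, on sequence 11 at 6519464 to 6519850 and on sequence 24 at 11522586 to 11523145, also lacked brain replicate 2 alone. All 3 ranked above 96 in each of the lists that called them, so the set of shared regions leaves out places that were among the strongest of 3 libraries.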

How the data were processed

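Each library had its own deposited peak list in narrowPeak layout. The submitters' processing notes name MACS2 2.1.0, deepTools 3.3.0, Bowtie2, Picard and Trim Galore. Their order, settings and the genome build are not given in the sources used here. The authors' columns hold a score (10 times −log10 q), a fold ratio of summit over local background, and −log10 p and −log10 q; each deposited list stops at a q of 1e-05.

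Peaks were merged at 1 bp of overlap, and each list was represented in a region by its peak of highest fold. Ranks are percentiles of fold within a list. Pileup and background were solved from fold = (pileup + 1)/(background + 1) and the Poisson tail; pileups were whole within 0.02 for 100% of peaks, and the solved pairs gave back the deposited −log10 p within 0.00535. Read totals are unknown. Coordinates are 1-based, in the lists' own assembly, with sequences called by number. The gene table at hand is of another assembly and no genome was used, so genes, promoters and sequences are not given. Merging and pileups were tested on simulated data (Python 3.11.15, pandas 2.3.3, scipy 1.17.1).

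Regions were named by rules on rank, width, summit distance, spacing and tissue shift; the members and lists were chosen with earlier results of these data known. Alternatives were equal list lengths, a −log10 q of at least 20, 100 bp of overlap, long sequences only, other ranks, summit choices and end zones, and leaving out each list.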

Additional observations from a re-analysis of the deposited data

How the results depend on the processing

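Of 94 recomputed values, 63 stayed within the spread between lists, the binomial interval or 1.5 times the count. Equal list lengths (5894 peaks each, by −log10 q) left 256 shared regions, with a median largest summit distance of 116 bp, a spacing of 382 kb, 12.5% in the end zones, a brain rank correlation of 0.307, and 4 and 80 regions ranked higher in brain and in fat body. A −log10 q of at least 20 left 821 regions, with 143 bp, 119 kb, and 64 and 338; both settings keep fewer peaks. Ranks among shared regions only gave 369 and 368. Zones of 5% at each end held 8.58%, being narrower by construction. Leaving out 1 list at a time gave 1764 to 2365 regions (highest without brain replicate 2), largest summit distances of 128 to 146 bp, spacings of 37.3 to 57.1 kb, and 334 to 610 and 806 to 1266 regions ranked higher in brain and in fat body, since fewer lists have to agree. Overlaps of 100 bp, long sequences only, ranks by −log10 q, the nearest summit, and, chosen after seeing the data, regions with 1 peak per list and a common stretch (1390) moved none of the values they were run on beyond those limits. The rank correlation of the fat body replicates stayed between 0.676 and 0.702 throughout. No paired analysis was possible because the results are descriptions with no fitted test, and the labels do not say that equal replicate numbers tie a brain library to a fat body library. Summit pileups down to 18 fragments limit how weak a shared region could be called.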
